A study of Rattus norvegicus with 8 samples.

Results

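Elastic fibre genes, the 10 genes Eln, Fbn1, Fbln1, Fbln2, Fbln5, Efemp2, Lox, Loxl1, Mfap4 and Emilin1, were followed in rat lung by RNA sequencing. They were chosen by symbol among the 32623 genes of the deposited table, where each had 1 row, and all 10 passed the filter on low counts. The MCT group held 4 libraries of lung tissue from rats treated with monocrotaline (MCT), a plant toxin used to raise pressure in the pulmonary circulation, as a model of pulmonary hypertension. The control group held 4 libraries of lung tissue from a control group of rats. The labels used here give no strain, age, dose, vehicle or time after treatment, and do not say that each library came from a separate animal. The p-values therefore measure only the spread between these libraries, which may be technical in part. In pieces of whole tissue, a change in the number of cells of a type and a change in RNA per cell cannot be told apart.

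Elastic fibres give lung and vessel walls their recoil. Soluble tropoelastin, the product of Eln, is laid down on a scaffold of fibrillin microfibrils with the help of fibulins and related proteins, and is then crosslinked by the copper enzymes of the lysyl oxidase family. In the pulmonary artery the fibres lie between layers of smooth muscle, and in the alveolus they support the rims of the septa.

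In MCT lungs, 8 of the 10 genes were higher and 1, Fbln2, was lower (edgeR's quasi-likelihood test, Benjamini-Hochberg adjusted p under 0.05 over all 16715 genes tested). Of all genes tested, 11.0% were called higher and 9.45% lower. Eln rose most, 5.33-fold, followed by the crosslinking enzymes Loxl1 (3.58-fold) and Lox (2.61-fold). Emilin1, Fbln5, Fbn1, Fbln1 and Efemp2 rose 2.25-, 2.16-, 2.10-, 1.87- and 1.66-fold. Mfap4, the most abundant of the 10 transcripts in both groups, was not past the threshold. The median log2 fold change of the 10 was 1.09, against 0.03 for all genes tested. For 8 genes the FPKM values of all MCT libraries lay above those of all control libraries, which held for 13.3% of all genes tested. No gene of the 10 had all MCT values below control, against 11.7% of all genes. Of the 8 genes that rose, 6 did so by a log2 fold change of 1 or more (3.70% of all genes).

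**Figure D1:**
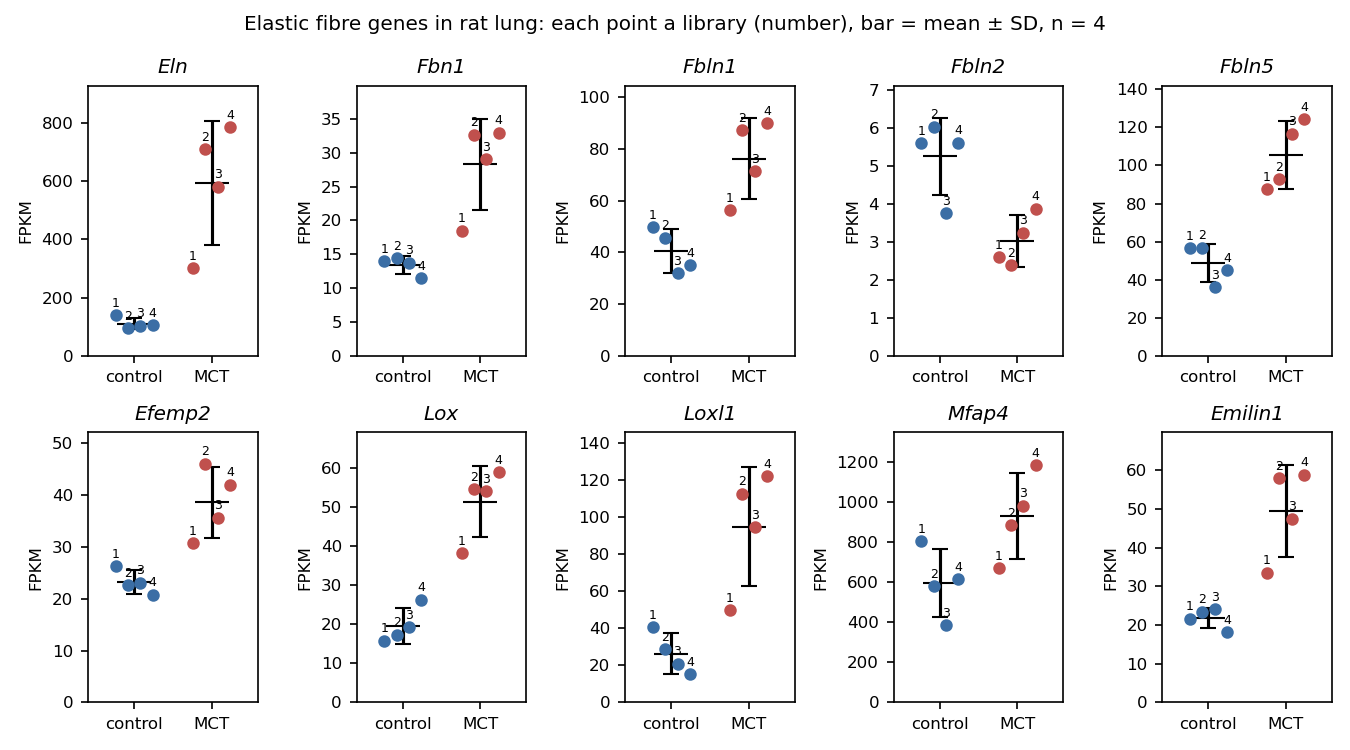
Level (FPKM, linear axis from 0) of each of the 10 genes in the 4 control and 4 MCT libraries, numbered by library, with the mean and SD of each group. The MCT points lie above every control point for 8 genes, while Mfap4 and Fbln2 overlap, and MCT 1 is the lowest MCT library for 9 genes.

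Promoter windows were matched by symbol for 5 of the 10 genes (Efemp2, Fbn1, Fbln2, Fbln5 and Loxl1) in RefSeq on build GRCr8, each covering 250 bases before and 50 after the annotated start. The 150 bases upstream of the start are printed for 3 genes that moved differently: Loxl1, the largest rise of the 5, Efemp2, the smallest rise, and Fbln2, the only fall. They lie at chr8:67612225-67612374, minus strand, chr1:212211572-212211721, plus strand, and chr4:125261509-125261658, plus strand. Each runs 5′ to 3′ on the strand of its gene. Capitals mark matches on either strand to any of 7 short motifs, and adjoining capitals are overlapping matches. The motifs were the GC box, spelled GGGCGG, the basal promoter element TATAAA, the CCAAT element, the AP-1 site, spelled TGANTCA, the SMAD-binding element CAGACA, the TEAD-binding element CATTCC and the CArG box of smooth muscle genes.
Loxl1: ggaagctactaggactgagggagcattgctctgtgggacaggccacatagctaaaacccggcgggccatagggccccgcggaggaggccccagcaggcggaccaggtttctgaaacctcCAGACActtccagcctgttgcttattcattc
Efemp2: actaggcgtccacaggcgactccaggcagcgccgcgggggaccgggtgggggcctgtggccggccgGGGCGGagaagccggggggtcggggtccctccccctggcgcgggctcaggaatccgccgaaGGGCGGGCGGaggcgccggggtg
Fbln2: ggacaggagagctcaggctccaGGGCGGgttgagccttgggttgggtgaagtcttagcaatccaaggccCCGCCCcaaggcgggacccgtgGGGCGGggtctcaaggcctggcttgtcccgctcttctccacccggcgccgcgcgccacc
GC boxes were in the 300-base windows of Fbln2 (3 matches), Efemp2 (5) and Fbln5 (1), and in 33.1% of all 33469 windows of that length. The CAGACA element was in those of Fbn1 and Loxl1, and in 21.1% of all windows. The annotated start of Fbn1 falls on an ATG, so its window may not lie upstream of transcription, and neither its match nor its base content is read as that of a promoter. CATTCC was in the windows of Fbln5 and Loxl1 (14.2% of all windows), and CCAAT in those of Fbln5 and Efemp2 (37.5%). The TATAAA element (14.2% of all windows), the AP-1 site (7.33%) and the CArG box (1.64%) had no match in the 5. The GC box was thus found both in Efemp2, which rose, and in Fbln2, which fell. The share of G and C in the 250 upstream bases of the other 4 was 60.4% (Loxl1) to 68.0% (Efemp2), and the median over all windows was 51.2%.

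Eln encodes tropoelastin, the elastic core of the fibre (ENSRNOG00000001469, Rnor_6.0, chromosome 12 from 24978483 to 25021863). Its level was 140, 95.9, 103 and 106 FPKM in control libraries 1 to 4 and 301, 710, 581 and 784 FPKM in MCT libraries 1 to 4. The groups did not overlap, and the lowest MCT library, MCT 1, was still above the highest control library, control 1. The mean went from 111 ± 19.5 to 594 ± 212 FPKM (SD, n = 4), a log2 fold change of 2.41 (SE 0.27, edgeR adjusted p 0.000837). By size of rise Eln stood at place 208 of the 16715 genes. The spread within MCT, an SD of 35.8% of the mean, was wider than the 17.5% within control, and MCT 1 accounted for the low end of it. With MCT 1 left out the log2 fold change was 2.63.

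The crosslinking enzymes came next in size. Lox and Loxl1 oxidize lysines in elastin and collagen, which then join into crosslinks. Lox (chromosome 18 from 47500330 to 47577819) was at 15.8, 17.3, 19.2 and 26.2 FPKM in control and at 38.1, 54.4, 54.0 and 58.9 FPKM in MCT. The log2 fold change was 1.39 (SE 0.17, edgeR adjusted p 0.00115). Loxl1 (chromosome 8 from 63067300 to 63092009) was at 40.5, 28.9, 20.9 and 15.2 FPKM in control and at 49.9, 113, 94.5 and 122 FPKM in MCT, with a log2 fold change of 1.84 (SE 0.36, edgeR adjusted p 0.00959). Loxl1 was the most variable of the 10 in control, with an SD of 41.6% of the mean, and control 1 came close to MCT 1. The 4 control libraries stood in opposite order for the 2 genes: control 1 had the most Loxl1 and the least Lox, and control 4 the least Loxl1 and the most Lox. The FPKM ratio of Loxl1 to Lox was 2.57, 1.66, 1.08 and 0.581 in control libraries 1 to 4. In MCT it was 1.31, 2.07, 1.75 and 2.08, inside the control range.

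**Figure D2:**
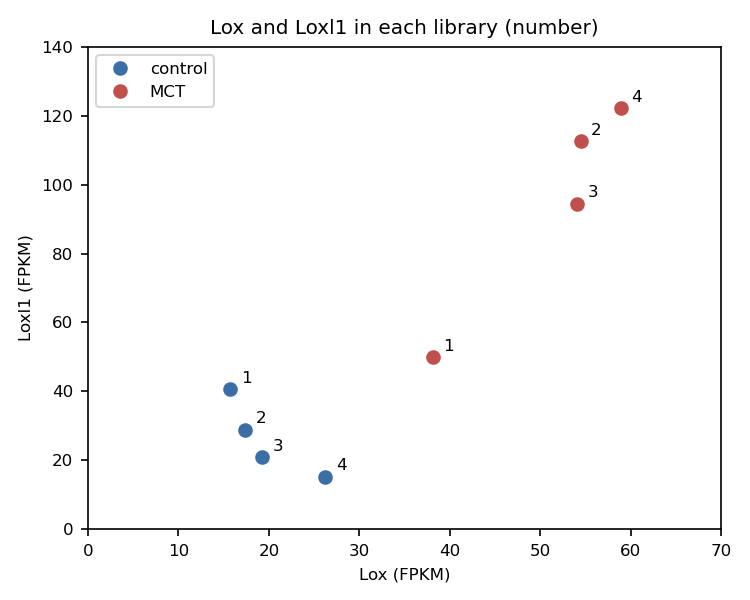
Level of Loxl1 against Lox (FPKM, linear axes from 0) in each control and MCT library, numbered by library. Control libraries fall from 40.5 FPKM of Loxl1 in control 1 to 15.2 in control 4 while Lox goes from 15.8 to 26.2, and the MCT libraries lie higher on both axes.

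Fbn1 and Emilin1 rose by smaller amounts. Fbn1 encodes fibrillin-1, the main microfibril protein of adult tissue (chromosome 3 from 117569697 to 117766120). It was at 14.0, 14.5, 13.8 and 11.5 FPKM in control and at 18.5, 32.7, 29.0 and 33.0 FPKM in MCT, a log2 fold change of 1.07 (SE 0.17, edgeR adjusted p 0.00339). The control values lay close together, with an SD of 9.85% of the mean, and MCT 1 stood nearer to them than to the other MCT libraries. Emilin1, a glycoprotein at the interface of elastin and microfibrils (chromosome 6 from 26821255 to 26828972), was at 21.7, 23.5, 24.1 and 18.2 FPKM in control and 33.5, 58.0, 47.5 and 58.9 FPKM in MCT. Its log2 fold change was 1.17 (SE 0.18, edgeR adjusted p 0.00257).

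Mfap4, a glycoprotein that binds microfibrils and tropoelastin (chromosome 10 from 47765432 to 47768483), was at 804, 581, 386 and 613 FPKM in control and 671, 883, 981 and 1184 FPKM in MCT. The groups overlapped, because control 1 lay above MCT 1. The log2 fold change was 0.64 with a 95% interval of 0.13 to 1.15 (SE 0.23, edgeR adjusted p 0.0782), so the unadjusted interval lay above 0 while the adjusted p missed the threshold. The call depended on those libraries and on the tool: edgeR gave an adjusted p of 0.040 without MCT 1, 0.0381 without control 1 and 0.0159 without both, and DESeq2 gave 0.0197 with all 8. Mfap4 overlaps Mapk7 on the other strand in the deposited table, at a mean of 18.6 FPKM. Whether strand was used in counting was not given in the sources used here.

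The fibulins, which bring tropoelastin and crosslinking enzymes to the microfibril, did not move together. Fbln5, which binds tropoelastin and Loxl1 and is needed for fibre assembly (chromosome 6 from 125644804 to 125723944), was at 56.6, 56.9, 36.1 and 45.2 FPKM in control and 87.6, 92.8, 117 and 124 FPKM in MCT. Its log2 fold change was 1.11 (SE 0.17, edgeR adjusted p 0.00265), with no overlap. Efemp2, also called fibulin-4, which binds Lox (chromosome 1 from 220854403 to 220861420), was at 26.3, 22.6, 23.1 and 20.7 FPKM in control and 30.7, 46.0, 35.6 and 41.9 FPKM in MCT. This was the smallest of the called rises, a log2 fold change of 0.73 (SE 0.13, edgeR adjusted p 0.00531). Fbln1, found on elastic fibres and in basement membranes (chromosome 7 from 126096793 to 126176468), was at 49.7, 45.8, 31.9 and 35.1 FPKM in control and 56.2, 87.3, 71.5 and 89.9 FPKM in MCT. The log2 fold change was 0.90 (SE 0.18, edgeR adjusted p 0.00946).

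Fbln2, an elastin- and basement membrane-binding fibulin of vessel walls (chromosome 4 from 122835436 to 122895121), went the other way. It was at 5.59, 6.03, 3.76 and 5.61 FPKM in control and 2.59, 2.38, 3.24 and 3.87 FPKM in MCT. The groups overlapped by a narrow margin, since MCT 4 lay above control 3. The mean went from 5.25 ± 1.01 to 3.02 ± 0.675 FPKM (SD, n = 4), 1.74-fold lower, with a log2 fold change of -0.80 (SE 0.20, edgeR adjusted p 0.0199). The least covered library held about 132 read pairs of Fbln2, against at least 4233 for Eln. The direction held without each library in turn, but the adjusted p was 0.0575 without MCT 2, 0.0588 without control 2, 0.051 without control 4 and 0.0714 without both MCT 1 and control 1. The ratio of Fbln1 to Fbln2 was 6.26 to 8.90 in the control libraries and 21.7 to 36.7 in the MCT libraries, with no overlap.

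**Figure D3:**
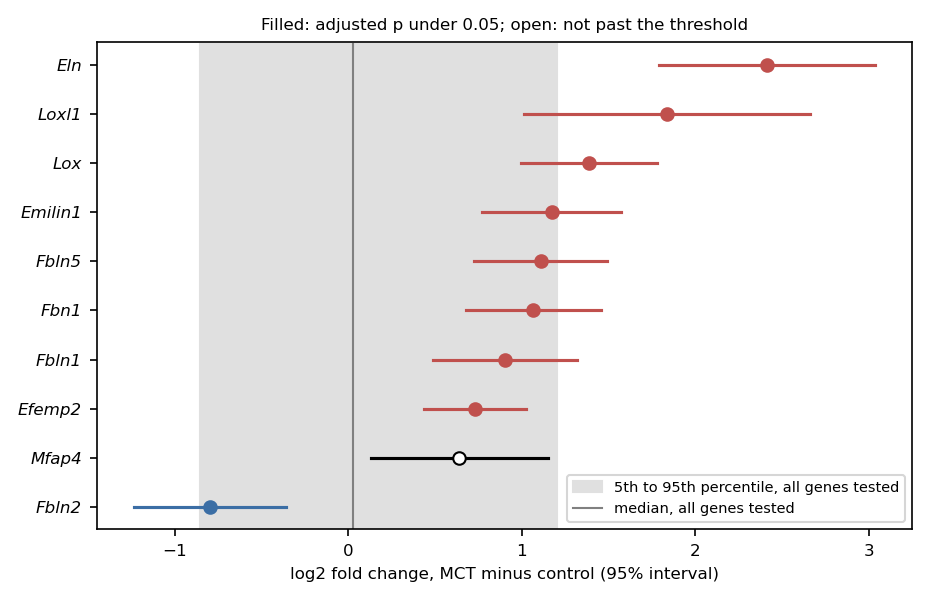
Log2 fold change of each gene, MCT minus control, from edgeR with its 95% interval, on a grey band from the 5th to the 95th percentile of all 16715 genes (-0.85 to 1.20). Eln (2.41), Loxl1 (1.84) and Lox (1.39) lie beyond the band, and Fbln2 (-0.80) is the only fall.

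Levels of different genes can be set side by side as FPKM, which is scaled to transcript length. In control the order of mean level ran Mfap4, Eln, Fbln5, Fbln1, Loxl1, Efemp2, Emilin1, Lox, Fbn1 and Fbln2. The ranges of neighbours overlapped from Fbln5 down to Lox, while Mfap4, Eln, Fbn1 and Fbln2 stood apart from their neighbours. Overlap of ranges sets aside that the genes were measured in the same libraries. Within each control library Fbln5 was above Fbln1 and Fbln1 above Loxl1, while the order of the other neighbours down to Lox varied. In MCT the ranges of Mfap4 and Eln overlapped, although Mfap4 was above Eln within each MCT library. Those from Fbln5 down to Fbn1 overlapped step by step, and Fbln2 remained lowest. The sum over the 10 genes was 662 to 1173 FPKM in control and 1289 to 2501 FPKM in MCT. Eln made up 10.7% to 15.6% of that sum in control and 23.4% to 34.1% in MCT. The share of Mfap4 was 58.3% to 68.5% in control and 42.5% to 52.0% in MCT. The FPKM ratio of Eln to Fbn1, core to scaffold, was 8.33 ± 1.53 in control and 20.5 ± 3.18 in MCT (SD, n = 4), without overlap. These shares and ratios are descriptions of genes chosen with earlier results known, and were not tested.

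**Figure D4:**
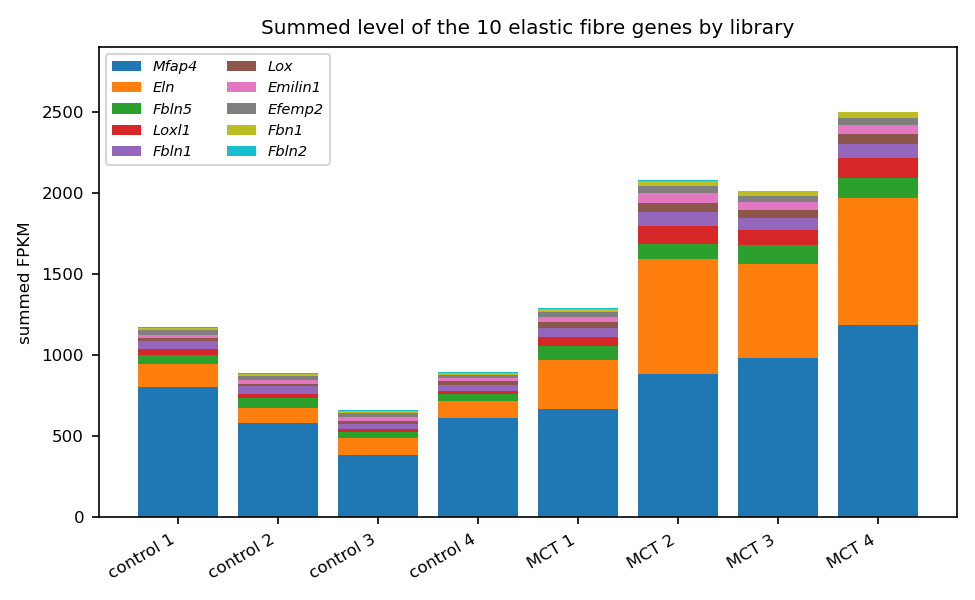
Summed FPKM of the 10 genes in each library, stacked by gene, on a linear axis from 0. The MCT bars reach 1289 to 2501 FPKM and the control bars 662 to 1173, and the Eln segment grows from 10.7% to 15.6% of the bar in control to 23.4% to 34.1% in MCT.

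Libraries within MCT differed in the same way for nearly all members. MCT 1 was the lowest MCT library for 9 of the 10 genes (for Fbln2 it was MCT 2), and MCT 4 the highest for 9 (for Efemp2 it was MCT 2). The deposited counts summed to 41.5, 48.3, 45.2 and 66.6 M in MCT libraries 1 to 4, so these 2 were the extremes of depth in MCT. The part of depth in this order was not tested. MCT 1 also stood apart over all genes, at 77.2 on the second principal component (15.3% of the variance) against -36.9 to 24.8 for the other 7 libraries. It had the highest summed cardiac muscle markers of the 8 libraries (135 FPKM, the others 24.6 to 62.4). Its sum of ciliated cell markers was the second highest (677 FPKM, after control 1 at 739). Tppp3 made up most of both ciliated sums, at 628 FPKM in MCT 1 and 708 FPKM in control 1. Among the other ciliated markers, Ccdc39 (6.62 FPKM), Cfap43 (15.2 FPKM) and Rsph1 (27.2 FPKM) were highest of all libraries in MCT 1. Dnah5 was highest in control 1, at 0.10 FPKM, against 0.09 FPKM in MCT 1. The sum of 4 mesothelial markers in MCT 1 (46.4 FPKM) was the lowest in MCT, where MCT 4 reached 218 FPKM. Their part in the lower levels of MCT 1 was not tested. Without MCT 1 and control 1, 9 members were higher by edgeR, Mfap4 among them, and Fbln2 was not past the threshold (-0.71, adjusted p 0.0714). Of all 16754 genes tested in that fit, 1816 were called higher and 1713 lower.

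Markers of lung were abundant in all libraries, with Sftpc, the surfactant protein of alveolar type 2 cells, at 21541 ± 3575 FPKM in control and 15164 ± 1421 FPKM in MCT (SD, n = 4). Of 4 lung epithelium markers, edgeR called Sftpc lower (log2 fold change -0.51, adjusted p 0.0387) and none higher. DESeq2 and limma each called 2 of the 4 lower and none higher. Sftpb was at -0.34 (edgeR adjusted p 0.0717). Elastic fibre genes are made by smooth muscle cells, fibroblasts, mesothelial and endothelial cells, and the levels of such markers stand beside the rise. Over all genes tested, edgeR called 11.0% higher and 9.45% lower. None of 7 smooth muscle markers was called by edgeR, by DESeq2 or by limma, and 0 had an unadjusted p under 0.05. Their summed level was 710 to 1018 FPKM in control and 757 to 1247 FPKM in MCT. Of 6 fibroblast markers, 3 were higher (Col1a1, Lum and Dpt) and none lower, with sums of 378 to 542 FPKM in control and 601 to 792 FPKM in MCT. Col1a1 and Lum are also counted among the fibrillar matrix genes below. Pi16 had a log2 fold change of -0.23 (edgeR adjusted p 0.631). Pdgfra, a receptor that marks lung fibroblasts, was not past the threshold (log2 fold change 0.08, edgeR adjusted p 0.802), nor was the fibroblast transcription factor Tcf21 (0.15, adjusted p 0.571). None of 4 mesothelial markers was called by edgeR, DESeq2 or limma, and 0 had an unadjusted p under 0.05, with sums of 40.6 to 137 FPKM in control and 46.4 to 218 FPKM in MCT. Of 3 endothelial markers, edgeR called Vwf lower and none higher. DESeq2 called 2 of the 3 lower, limma 1, and neither called any higher. Cdh5 was at -0.52 (edgeR adjusted p 0.110). The sums of the 3 were 230 to 292 FPKM in control and 114 to 204 FPKM in MCT. The lowest sum was that of MCT 2, where Cldn5 was at 0 FPKM. Of 6 cartilage markers, which would show airway cartilage, Cnmd was at 0 in every library, Acan and Col2a1 were each at 0 in 7 of 8, and Matn3 was at 0 in every control library and at most 0.11 FPKM in MCT. Only Sox9 and Comp passed the filter on low counts. Sox9, a transcription factor that airway epithelium can also express, was lower, at 1.97 to 4.07 FPKM in control and 0.42 to 0.85 FPKM in MCT (log2 fold change -2.41, edgeR adjusted p 0.00167). Comp was not past the threshold (log2 fold change 0.23, edgeR adjusted p 0.766). The cartilage sums were 2.30 to 4.54 FPKM in control and 0.61 to 1.32 FPKM in MCT. All 4 markers of dividing cells were higher, with sums of 8.62 to 12.4 FPKM in control and 41.0 to 47.3 FPKM in MCT. The part of these cell types in the rise of the elastic fibre genes was not tested.

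The other genes of the pathway were taken from lists drawn up by role. Their counts stand beside 11.0% of all genes tested called higher and 9.45% called lower. Of 16 tested microfibril and assembly genes, 4 rose, 2 fell and 10 did not pass the threshold, with a median log2 fold change of 0.41. Adamtsl2, a secreted protein that binds fibrillin and latent TGF-beta binding proteins, rose by a log2 fold change of 1.27 (SE 0.15, edgeR adjusted p 0.000948). Its levels were 24.6 to 32.8 FPKM in control and 52.5 to 76.2 FPKM in MCT. Mmrn1, a multimerin of the same protein superfamily as Emilin1, rose by 1.41, and Ltbp1, which tethers latent TGF-beta to microfibrils, fell by 0.36. The other called genes were Adamts17 (0.91) and the fetal fibrillin gene Fbn2, both higher, and Adamtsl4 (-0.55). Fbn2 was close to absent, at no more than 0.01 FPKM in control and 0.03 to 0.12 FPKM in MCT, so its call rests on at most about 17.4 read pairs a library. The counts moved with single libraries: 7 genes were higher without MCT 1 and 2 without MCT 4, control 2 or control 4, and 1 was lower without MCT 2 or control 3. Over all genes, 1946 were higher without MCT 1, and 1345, 1301 and 1381 without MCT 4, control 2 and control 4. Those lower were 975 without MCT 2 and 1160 without control 3.

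Among 8 crosslinking genes other than Lox and Loxl1, 1 was higher and 1 lower, with a median log2 fold change of 0.31. These counts were close to the shares over all genes tested, 11.0% higher and 9.45% lower. Loxl2, a lysyl oxidase also active on basement membrane collagen, was at 4.36, 4.61, 3.76 and 5.04 FPKM in control and 6.62, 15.5, 12.4 and 14.8 FPKM in MCT. It rose by 1.47 (SE 0.24, edgeR adjusted p 0.00356), and again MCT 1 was the lowest of its group. Tll1, a protease of the Bmp1 family that trims matrix proteins, fell by 1.58, from 0.927 ± 0.333 to 0.31 ± 0.175 FPKM (SD, n = 4), a call lost without MCT 2, MCT 3, control 1, control 2 or control 3. Bmp1 itself, which cleaves the propeptide of Lox, had a log2 fold change of -0.39 (edgeR adjusted p 0.0725). The copper transporter Atp7a, which loads lysyl oxidases, was at -0.10 (edgeR adjusted p 0.816). Of the genes of this list, 2 were higher without MCT 1, 3 without control 1 and 4 without both, and 2 were lower without control 4. Over all genes, 1946, 1612 and 1816 were higher in the first 3 of these fits, and 1210 were lower without control 4.

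Of 8 receptor genes, 2 were higher and 1 lower, with a median log2 fold change of 0.18. Over all genes tested, 11.0% were called higher and 9.45% lower. Ctsa (0.45, edgeR adjusted p 0.0132) and Glb1 (0.41, edgeR adjusted p 0.0266) rose. Both are lysosomal proteins, and a splice form of Glb1 is the elastin-binding subunit of the elastin receptor, in which Ctsa also takes part. Gene-level counts do not show which form was present. Neu1, the third subunit, was at 0.16 (edgeR adjusted p 0.490). Itgb3, an integrin chain that binds fibrillin, fibronectin and other RGD proteins, fell by 0.47 from 5.00 ± 0.475 to 3.63 ± 0.243 FPKM (SD, n = 4). The call of Itgb3 was lost without any 1 library except control 1, and 1 gene was higher without any 1 of MCT 2, MCT 3, MCT 4, control 1, control 2 or control 4.

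Of 14 tested genes for enzymes that cut elastin and their inhibitors, 6 rose, 1 fell and 7 did not pass the threshold. Their median log2 fold change was 0.90. Over all genes tested, 11.0% were called higher and 9.45% lower. The 5 proteases that rose were Mmp12, the macrophage elastase (2.61), Ctsk (1.42), Ctss (1.21), Mmp2 (1.14) and Mmp14 (0.95). Mmp12 was at 0.69, 0.89, 2.15 and 0.25 FPKM in control and 6.27, 8.36, 4.59 and 5.27 FPKM in MCT, without overlap. The sixth gene that rose was the inhibitor Timp1, from 35.5 ± 7.39 to 71.5 ± 15.4 FPKM (SD, n = 4). Serpina1, the inhibitor of neutrophil elastase, fell by 4.07 (SE 0.33, edgeR adjusted p 0.000251), while Slpi, another elastase inhibitor, was at 1.45 (edgeR adjusted p 0.0588). Neutrophil elastase itself, Elane, did not pass the filter on low counts and stood at 0 to 0.29 FPKM. Of 5 macrophage markers, 4 were tested, and Cd68, C1qa and C1qb were higher by edgeR. Mrc1 was not past the threshold (0.72, edgeR adjusted p 0.0684). Marco did not pass the filter on low counts, at no more than 0.11 FPKM. The summed level of the 5 was 137 to 219 FPKM in control and 328 to 603 FPKM in MCT. Its part in the rise of Mmp12, Ctss and Ctsk was not tested.

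**Figure D5:**
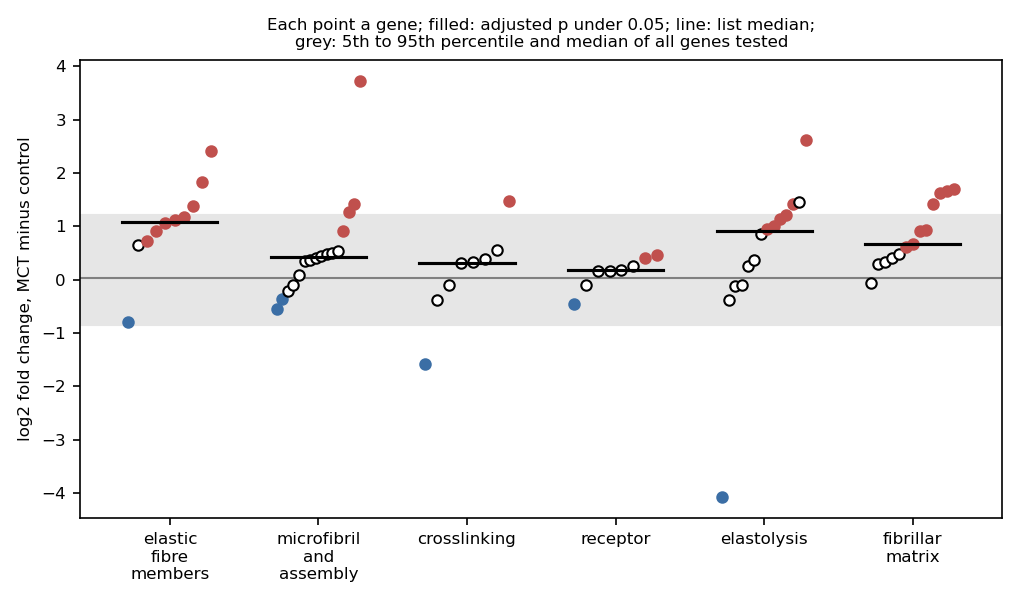
Log2 fold change (MCT minus control, edgeR) of each tested gene in 6 lists, with list medians as lines and, in grey, the 5th to 95th percentile and the median of all genes tested. The medians are 1.09 for the elastic fibre genes, 0.41, 0.31, 0.18 and 0.90 for the 4 other pathway lists and 0.67 for the fibrillar matrix genes.

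Beside the elastic fibre genes, 13 fibrillar matrix genes (collagen chains, proteoglycans and glycoproteins of fibroblasts) had 8 higher and 0 lower by edgeR, with a median log2 fold change of 0.67. Over all genes tested, 11.0% were called higher and 9.45% lower, and the median was 0.03. None of the 13 was lower at an unadjusted p under 0.05, by DESeq2 or by limma. Col1a1 rose by 1.70 (SE 0.19, edgeR adjusted p 0.000655), Tnc, a matrix protein of remodelling tissue, by 1.66 and Col3a1 by 1.41. Eln (2.41) and Loxl1 (1.84) had larger log2 fold changes than any of the 13, a difference that was not tested. Decorin, Dcn, was at -0.07 (edgeR adjusted p 0.763).

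Genes were also ranked by how near their profile over the 8 libraries lay to that of Eln. Likeness was the mean absolute difference of log2(FPKM + 0.5), centred on the control mean, over 12761 genes with a mean of at least 2 FPKM. The 5 nearest were low in control, at means of 0.668 to 1.72 FPKM, so their distances depend on the added 0.5. The difference was 0.0944 for the prostaglandin D synthase gene Hpgds, 0.120 for the transporter gene Slc45a3, 0.269 for the kinetochore gene Knstrn, 0.277 for the cyclin gene Ccnb1 and 0.281 for Il1rl1, the receptor of interleukin 33. Hpgds was at 0.60 to 0.77 FPKM in control and at 2.71, 7.67, 6.07 and 7.34 FPKM in MCT libraries 1 to 4, with MCT 1 lowest as for Eln. Its edgeR log2 fold change was 3.12 and that of Slc45a3 was 2.80, both above the 2.41 of Eln. In a choice made after seeing the data, Hpgds moved to place 8 with 0.1 added and to place 3 with 1 added, where Slc45a3 was nearest in both. Among the elastic fibre genes themselves, Loxl1 came nearest to Eln, at place 49 (0.443), then Lox at place 155 (0.640). The others that rose stood at places 215 to 476, Mfap4 at 801 and Fbln2 at 12041, and with 0.1 or 1 added Loxl1 was at place 47 or 36. Centring on the control mean leaves the difference between groups in the measure. The places of the elastic fibre genes therefore largely restate their fold changes and do not show separate variation along with Eln.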

How the data were processed

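RNA sequencing libraries of rat lung, 4 from MCT and 4 from control rats, were analysed from 1 deposited table. Per the submitters' processing notes, cutadapt 1.9, HISAT2 2.0.4, StringTie 1.3.4d and edgeR were used with build Rnor_6.0, with no order or settings given. The table gives an estimated count and an FPKM value per gene and library, both made by the authors, per the file headers. These estimated counts, as deposited, are whole numbers whose low values are spaced about 3.67 units apart, taken as 1 read pair. Thus the totals of 39.8 to 66.6 M units stand for about 10.8 to 18.1 M read pairs. All value columns matched a library.

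A rounding step was applied to the counts, which were whole numbers as deposited. They were fitted with edgeR 4.0.16 (R 4.3.3): filterByExpr with a minimum count of 10 (16715 genes), TMM scaling, robust dispersions and the quasi-likelihood test, two-sided. Benjamini-Hochberg adjustment was over all genes tested, with a threshold of 0.05. Standard errors are the size of the log2 fold change divided by the root of the F statistic. The 95% intervals use the sum of the prior and residual degrees of freedom of the fit. The fit was tested on simulated data. limma 3.58.1 and DESeq2 1.42.0 served as alternatives. No set test was run. By rule, the genes named outside the 10 were the called genes with the smallest p in each list, at most 3. Others are examples of a count or were named outside that rule, among them Mmp12 and the uncalled Bmp1, Atp7a, Neu1, Slpi, Elane and Dcn. The 10 genes and the lists were chosen with earlier results of these data known. Thsd4, Col1a2, Col6a3, Pecam1 and Foxj1 were not analysed here. Libraries of a group were no duplicates, with a chi-square per gene of 14.3 or more. How reads shared by paralogs were counted was not stated.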

Additional observations from a re-analysis of the deposited data

How the results depend on the processing

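Every alternative kept the direction of all 10 members. The number of members higher was 8 in the main analysis and 8 to 9 over the fits that left out 1 library each, and the number lower was 0 to 1. With the replicate number as a block, 7 were higher and 1 lower. All genes called moved as well. Without MCT 2 they were 1191 higher and 975 lower of 16966, and without MCT 1 1946 higher and 1730 lower of 16947. The other fits without 1 library lay between these. DESeq2 called 2266 higher and 2181 lower of 16715. Where a change of 1 or more on the log2 scale was also required, 6 members were higher (3.70% of all genes) and 0 lower, as Fbln1 (0.90), Efemp2 (0.73) and Fbln2 (-0.80) dropped out. Without both MCT 1 and control 1, 0 members were lower (Fbln2 at -0.71) and Mfap4 passed the threshold at 0.93, as it did with DESeq2 at 0.63. Leaving out 1 library each gave log2 fold changes of 2.25 to 2.63 for Eln, 0.98 to 1.22 for Fbn1, 0.80 to 1.02 for Fbln1, -0.95 to -0.70 for Fbln2, 0.99 to 1.20 for Fbln5 and 0.63 to 0.82 for Efemp2. For Lox they were 1.29 to 1.54, for Loxl1 1.64 to 2.11, for Mfap4 0.48 to 0.81 and for Emilin1 1.08 to 1.31.

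The small counts of the other lists moved more. Over the fits without 1 library each, 2 to 7 microfibril and assembly genes were higher and 1 to 2 lower, 1 to 3 crosslinking genes higher and 0 to 2 lower, and 1 to 2 receptor genes higher and 0 to 1 lower. Fibrillar matrix genes that were higher numbered 6 to 12 (8 with all libraries), and elastolysis genes 6 to 9 (6 with all libraries). With the fold threshold, 0 microfibril and assembly genes were lower, 0 receptor genes higher and 0 lower, and 4 fibrillar matrix genes higher. DESeq2 called 2 crosslinking genes lower, limma on log2(FPKM + 1) called 2 microfibril and assembly genes higher, no filter left 0 receptor genes lower, and a mean FPKM of at least 1 left 0 crosslinking genes lower. Without both MCT 1 and control 1, 4 crosslinking genes were higher and 0 lower. In an alternative that was not planned, counts were divided by the spacing of 1 read pair. It gave 3 microfibril and assembly genes and 7 elastolysis genes higher, with 8 members higher and 1 lower.

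Nothing in the labels ties same-numbered libraries, and the correlations of their deviations from the group means were 0.11, 0.0165, -0.0165 and -0.0848. With the replicate number as a block, all genes called went to 1436 higher and 1271 lower from 1845 and 1579. In that fit 2 microfibril and assembly genes were higher, 0 crosslinking and 0 receptor genes lower, and Loxl1 was at 1.88 (edgeR adjusted p 0.0666). Only control 1 and MCT 1 correlated best with their own number.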

Other observations

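The FPKM ratio of some pairs of members varied little, over all libraries or within 1 group only, and that of others varied more. These pairs were chosen after their values were seen, were not tested and are given as values. The ratio of Eln to Loxl1 was 6.03, 6.29, 6.14 and 6.42 in MCT libraries 1 to 4, although Eln itself ranged from 301 to 784 FPKM there. In control libraries 1 to 4 the same ratio was 3.45, 3.32, 4.95 and 6.95, a much wider range. The ratio of Fbn1 to Emilin1 was 0.571 to 0.647 in control and 0.552 to 0.611 in MCT, so it spanned a narrow range over all 8 libraries. The ratio of Fbln5 to Efemp2, the fibulins that bind Loxl1 and Lox, overlapped between groups at 1.57 to 2.51 in control and 2.02 to 3.28 in MCT.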
